A study of Mus musculus with 10 samples.

Results

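The genes described here are 36 genes of glycolysis and of the response to low oxygen, given as a list of symbols, out of 30935 genes in the count table of mouse cerebral cortex. All 36 were found in the table and all 36 were among the 15488 genes that passed the filter on low counts. They comprise 16 glycolytic enzymes, 3 genes of glucose uptake and flux control, 3 HIF subunits, 4 genes of oxygen sensing and HIF degradation, and 10 HIF target genes. The cortex was taken at postnatal day 8 from 5 wild-type mice, numbered 2, 4, 5, 6 and 7, and 5 mice with both copies of the HAR.505 element in the Rbfox1 locus deleted, numbered 1, 3, 5, 6 and 8. The latter are called knockout, and values are given in these orders. The series' design text calls the 5 samples of each genotype independent. The labels give neither strain, litter nor sex, and do not say whether the deletion line came from 1 founder. By the counts of sex-linked genes, 1 wild-type and 2 knockout mice were male. The comparison asks which of these genes differed in level when the element was absent.

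Glycolysis splits glucose into pyruvate in the cytosol, and lactate dehydrogenase converts pyruvate to lactate. Cells sense oxygen through the Egln prolyl hydroxylases, which use oxygen to mark the alpha subunits of HIF, the hypoxia-inducible transcription factor. The Vhl protein then binds the marked subunit and directs its breakdown. When oxygen is low, HIF alpha escapes this fate, pairs with Arnt, and raises the transcription of many glycolytic enzymes, of Vegfa and of Egln1 and Egln3 themselves. In the brain, astrocytes are known for strong glycolysis and neurons for keeping the protein of Pfkfb3, a glycolytic activator, low by degradation.

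Egln3 and Pfkfb3 were lower in the knockout cortex, and these were the 2 of 36 members that passed the test of edgeR over all genes, beside 0.381% of all tested genes (0.194% lower). Egln3 was put forward with its fall already known from earlier results of these data, so its call is not independent evidence. The bases before the starts of both genes, and of the other Egln genes for comparison, are printed here because HIF binds DNA at a short core motif. The letters searched were ACGTG and GCGTG on both strands, and capitals mark each match, which on the opposite strand reads CACGT or CACGC. Sequences are from RefSeq on GRCm38.p6, a build other than the mm39 of the counts, and stretches that GENCODE annotates as exon were left out.
Egln3, bases 250 to 1 before its start, chr12:54203875-54204124, minus strand: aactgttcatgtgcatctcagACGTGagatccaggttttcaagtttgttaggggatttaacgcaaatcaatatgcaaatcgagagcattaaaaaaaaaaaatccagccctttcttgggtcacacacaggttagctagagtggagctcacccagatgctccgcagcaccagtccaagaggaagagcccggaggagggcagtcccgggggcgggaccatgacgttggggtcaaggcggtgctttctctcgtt
Egln1, bases 160 to 72 before its start, chr8:124949326-124949414, minus strand: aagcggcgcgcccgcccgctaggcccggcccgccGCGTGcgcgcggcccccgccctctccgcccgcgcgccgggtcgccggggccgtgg
Egln2, bases 160 to 24 before the first of 2 listed starts, chr7:27166826-27166962, minus strand: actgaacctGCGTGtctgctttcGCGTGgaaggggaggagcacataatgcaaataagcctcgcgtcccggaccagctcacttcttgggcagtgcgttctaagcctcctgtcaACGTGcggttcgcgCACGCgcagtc
Pfkfb3, bases 250 to 21 before the second of 2 listed starts, chr2:11502111-11502340, minus strand: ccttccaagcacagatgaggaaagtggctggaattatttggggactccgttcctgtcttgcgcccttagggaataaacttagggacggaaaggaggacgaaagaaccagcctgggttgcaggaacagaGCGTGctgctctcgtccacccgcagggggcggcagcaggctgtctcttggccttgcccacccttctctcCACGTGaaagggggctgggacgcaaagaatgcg

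In the Egln3 window the match lay 229 bases before the start, and no second match was found. Egln1 had 2 matches in its 300-base promoter window (250 bases before to 50 after the start), and Egln2 had 6 at its first listed start. The capitals CACGTG of Pfkfb3 are 2 overlapping matches, ACGTG on each strand, 53 and 52 bases before the start. Promoter windows were listed for 32 of the 36 members, all but Slc2a3, Epas1, Bnip3l and Ndrg1, with 50 starts in all. Of these 50 windows, 37 (74%) held ACGTG or GCGTG, against 43.8% of all 32851 windows in the table. ACGTG alone was in 24 member windows (48%) and in 19.6% of all. Several starts of 1 gene overlap, and the member windows were richer in G and C (61.5% against 53.8%), and the part of this in the motif shares was not tested. A match is a stretch of letters and not a measured binding site.

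Library totals ran from 16479594 to 22391943 counts, and levels are given as CPM, a gene's read counts relative to its library's total after scaling by TMM factors. Of all tested genes, 0.381% passed the test at an adjusted p under 0.05 (59 genes), 0.194% passed it in the direction of a fall, and 8.71% had an unadjusted p under 0.05. In 1.82% the 2 genotypes did not overlap. Choroid plexus and ependyma markers were lower in the knockout libraries. Their summed level ran from 269.2 to 329.6 CPM in wild type and from 24.6 to 245.3 CPM in knockout. Of 15 tested markers 15 had a log2 fold change below 0, 8 had an unadjusted p under 0.05 and 2 passed the test. Ttr, the defining transcript of the choroid plexus, made up most of the summed level in wild type, at 255 ± 25.4 CPM (SD, n = 5). In knockout it averaged 57.2 ± 86.8 CPM (SD, n = 5), and it did not pass the test (adjusted p = 0.681 in edgeR). It had 0 counts in knockout replicate 3, which allows up to 0.165 CPM (3 counts, counting error only). Striatal projection neuron markers ran from 276.9 to 427.9 CPM in wild type and from 217.9 to 283.5 CPM in knockout. Of 14 tested markers 13 had a log2 fold change below 0 and 1 above. Of the 13 lower ones, 12 had an unadjusted p under 0.05 and 3 passed the test. The 1 higher one also had an unadjusted p under 0.05 but did not pass. Penk, a peptide gene of striatal neurons, averaged 25.4 CPM in the wild-type libraries against 12.4 CPM in the knockout libraries. Of 10 inhibitory neuron markers 9 had a log2 fold change below 0 and 1 passed the test, Slc32a1, which fell and is named here after its value was seen. Their sum ran from 653.3 to 735.7 CPM without the deletion and from 549.7 to 659.3 CPM with it. Of the red cell markers 5 of 5 tested had a log2 fold change below 0 and of the microglia markers 8 of 8 had one above 0, with 0 past the test of edgeR in both lists and 2 and 0 at an unadjusted p under 0.05. Slc17a7, a marker of cortical excitatory neurons, averaged 926 CPM in the wild-type libraries and 988 CPM in the knockout libraries. This marker alone does not show how much tissue other than cortex the samples held.

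Of the 4 genes of oxygen sensing and HIF degradation, Egln3 was the 1 that fell. The wild-type libraries held Egln3 at 17.0, 20.7, 15.8, 21.7 and 16.1 CPM in replicate order. The knockout libraries held it at 14.5, 10.3, 12.8, 12.02 and 14.9 CPM. Every knockout library lay below every wild-type library, although the highest knockout value, in replicate 8, came within about 1 CPM of the lowest wild-type values, in replicates 5 and 7. The mean was 18.3 ± 2.75 CPM (SD, n = 5) against 12.9 ± 1.89 CPM (SD, n = 5), so Egln3 fell by 29.5%. The log2 fold change was -0.50 (SE 0.118, 95% interval of the fold 0.596 to 0.833), with an adjusted p of 0.0498 in edgeR's quasi-likelihood test. Egln3 was the last of the 59 genes past the threshold. Between 186 and 484 reads per library lay behind these values.

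Egln1, the main hydroxylase that keeps HIF low in normal oxygen, stood at 101, 93.2, 96.3, 88.5 and 90.1 CPM in wild type. In knockout it stood at 91.3, 95.2, 103, 88.5 and 96.8 CPM, so the genotypes overlapped. Its log2 fold change was 0.02 (SE 0.055), and the interval of the fold ran from 0.937 to 1.09. Egln2, another hydroxylase of the family, held 79.1, 75.8, 75.4, 72.9 and 70.4 CPM in wild type and 80.9, 79.4, 74.0, 79.6 and 74.2 CPM in knockout. Its log2 fold change was 0.05 (SE 0.055), with an interval of the fold from 0.962 to 1.122. Neither gene passed the test, and a fall of the size of Egln3 lies outside both intervals.

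**Figure D1:**
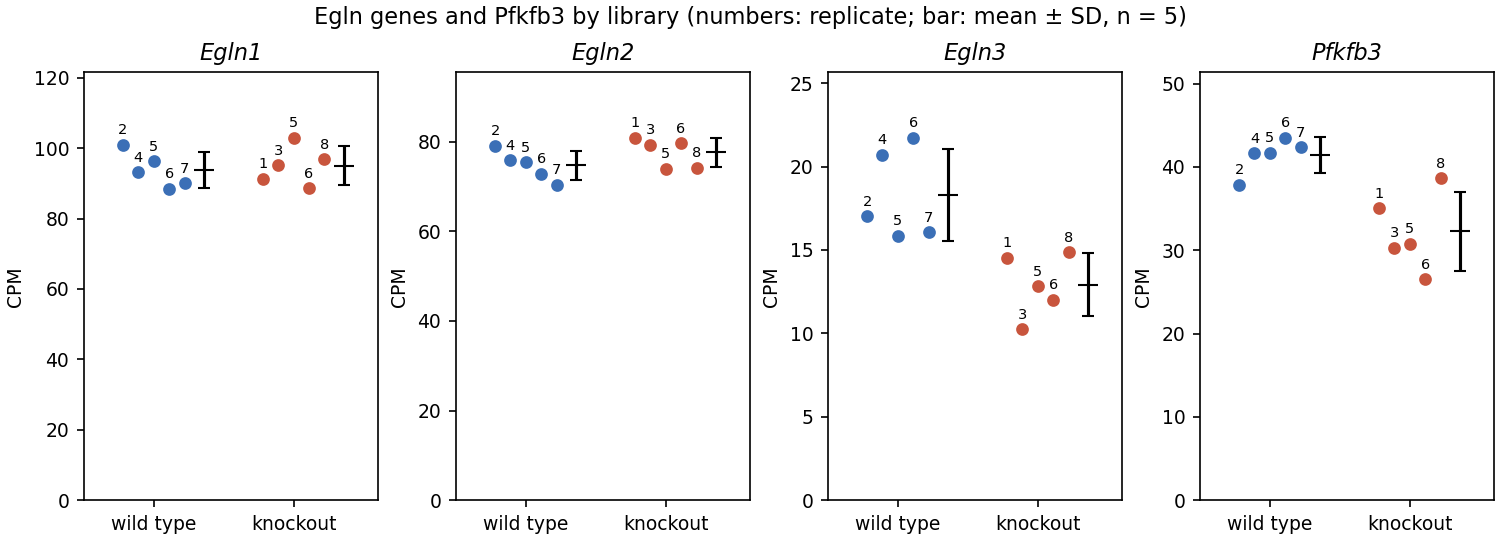
CPM of Egln1, Egln2, Egln3 and Pfkfb3 (vertical axes, from 0) in each library of wild type (blue) and knockout (red), with replicate numbers, and the mean ± SD of 5 libraries in black. Egln1 and Egln2 overlap between genotypes, all 5 knockout values of Egln3 lie below the wild-type values, and knockout replicate 8 is the knockout library of Pfkfb3 that reaches into the wild-type range.

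The difference between the family members was tested directly within each library. Egln3 amounted to 16.9%, 22.2%, 16.5%, 24.6% and 17.8% of the Egln1 level in the wild-type libraries and to 15.9%, 10.8%, 12.5%, 13.6% and 15.4% in the knockout libraries. The mean log2 ratio was lower by 0.52 in the knockout (-2.37 ± 0.258 against -2.89 ± 0.229, SD, n = 5 each). The exact two-sided permutation test over all ways to assign 5 of the 10 libraries to a genotype gave p = 0.00794, the smallest it can give, and the adjusted value over the 2 ratios was the same. Against Egln2, the wild-type libraries held 21.5%, 27.3%, 21.01%, 29.8% and 22.8%. The knockout libraries held 18.0%, 12.9%, 17.4%, 15.1% and 20.03%. That log2 ratio was lower by 0.56 (-2.04 ± 0.223 against -2.60 ± 0.244), also at an exact permutation p of 0.00794. Both ratios kept all 5 knockout libraries below all 5 wild-type libraries. Since Egln3 was known to fall, these values describe its size relative to its relatives and are no separate support. Without knockout replicates 3, 5 and 6, the libraries lowest in Ttr, the differences were -0.31 and -0.35. The adjusted exact permutation p was 0.0952 for each. Only knockout replicates 1 and 8 were left, both still below every wild-type library in both ratios. With so few assignments this test cannot give a p as small as that over all libraries.

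Divided by exon length (GENCODE basic transcripts of GRCm38), Egln2 was the most abundant of the 3 in wild type at 33.9 CPM per kilobase, followed by Egln1 at 26.1 and Egln3 at 6.87. In knockout the order was the same, at 35.2, 26.4 and 4.85 CPM per kilobase. Egln3 was therefore the least abundant of the 3 sensors at the level of RNA in both genotypes. Vhl, which binds hydroxylated HIF alpha for breakdown, held 69.8, 73.9, 73.5, 75.5 and 73.6 CPM in wild type and 66.5, 77.2, 70.4, 77.6 and 71.4 CPM in knockout. Its log2 fold change was -0.01 (SE 0.056), and its genotypes overlapped.

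The HIF subunits did not pass the test. Hif1a, the alpha subunit found in most cells, held 116, 123, 126, 121 and 125 CPM in wild type and 123, 122, 129, 119 and 136 CPM in knockout, a log2 fold change of 0.04 (SE 0.050). Epas1, which encodes HIF-2 alpha and is known from endothelium and astrocytes, held 97.8, 98.1, 98.8, 110 and 109 CPM in wild type. In knockout it held 106, 120, 119, 119 and 111 CPM, so that 4 of the 5 knockout libraries lay above the highest wild-type library. Its log2 fold change was 0.17 (SE 0.054), with an unadjusted p of 0.00415 and an adjusted p of 0.256 in edgeR. The summed endothelial markers ran from 387.8 to 411.8 CPM in wild type and from 392.3 to 448.8 CPM in knockout, and the summed astrocyte markers from 3329 to 3836 and from 3489 to 4066 CPM. Of these lists 0 of 11 and 0 of 9 tested markers passed the test in edgeR. At an unadjusted p under 0.05 there were 2 (18.2%) and 2 (22.2%), all higher, beside 8.71% of all tested genes. The part of these cell types in the Epas1 values was not tested. Arnt, the shared partner subunit, held 34.3, 28.3, 30.9, 34.9 and 30.1 CPM in wild type and 33.6, 26.03, 31.1, 30.4 and 31.4 CPM in knockout, a log2 fold change of -0.06 (SE 0.081).

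Among the genes of glucose uptake and flux control, Pfkfb3 fell. It encodes the kinase that makes fructose 2,6-bisphosphate, the strongest activator of phosphofructokinase. The wild-type libraries held 37.9, 41.6, 41.7, 43.5 and 42.4 CPM, a narrow range. The knockout libraries held 35.1, 30.3, 30.8, 26.5 and 38.7 CPM. Knockout replicate 8 lay just above wild-type replicate 2, and the other 4 knockout libraries lay below all wild-type libraries. The mean went from 41.4 ± 2.12 to 32.3 ± 4.70 CPM (SD, n = 5 each), so Pfkfb3 fell by 22.2%. The log2 fold change was -0.36 (SE 0.082, interval of the fold 0.693 to 0.874), with an adjusted p of 0.0410 in edgeR. For Slc2a3, the neuronal glucose transporter GLUT3, the log2 fold change was 0.02 (SE 0.070). For Pdk1, a kinase that restrains the use of pyruvate by mitochondria, it was -0.0003 (SE 0.062).

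The calls of Egln3 and Pfkfb3 lay close to the threshold and depended on single libraries. When 1 of the 10 libraries was dropped, each gene passed in 2 cases, without knockout replicate 1 or 8. In the 8 others the log2 fold change of Egln3 lay between -0.55 and -0.43 and that of Pfkfb3 between -0.39 and -0.30, with an adjusted p in edgeR of at most 0.193 and 0.155. Without knockout replicates 3, 5 and 6 the log2 fold changes were -0.31 for Egln3 and -0.17 for Pfkfb3, with adjusted p of 0.698 and 0.770 in edgeR.

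**Figure D2:**
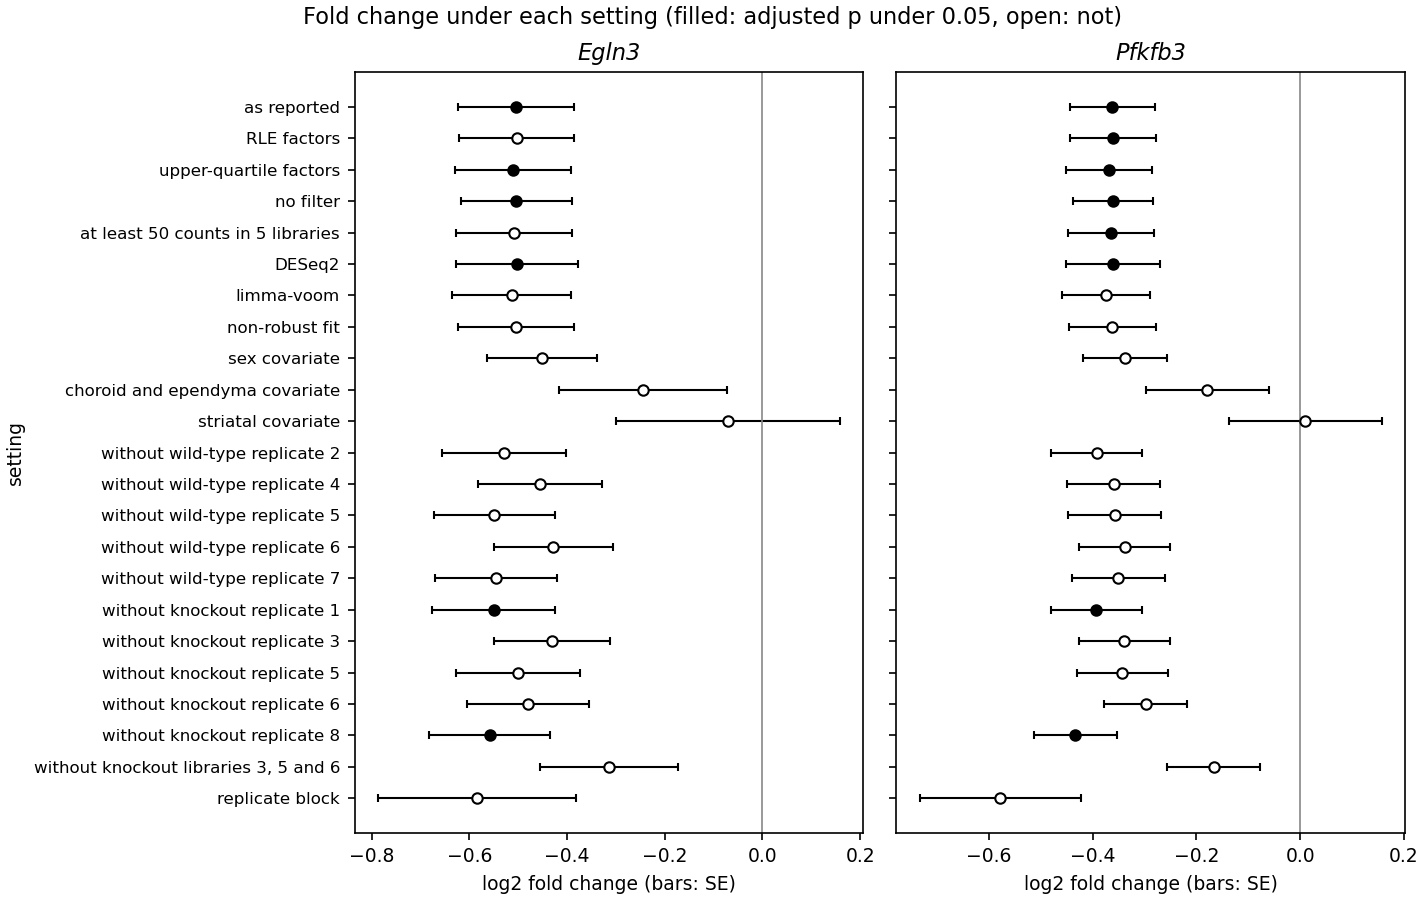
Log2 fold change (horizontal axis, bars: SE) of Egln3 (left) and Pfkfb3 (right) as reported and under each alternative setting (vertical axis), with filled points where the adjusted p was under 0.05. The points lie below 0 for every setting except Pfkfb3 with the striatal covariate, at 0.01, and most are open.

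Striatal and choroid markers were lower in the knockout libraries, as Egln3 and Pfkfb3 were, but within a genotype the orders matched in part. Among the 5 knockout libraries, Egln3 had the same order as the mean log2 CPM of the striatal markers, from replicate 3 with the lowest (2.155) through replicates 6, 5 and 1 to replicate 8 with the highest (2.96). Among the wild-type libraries the striatal mean rose from replicate 7 (3.069) through replicates 2, 4 and 6 to replicate 5 (3.53). Egln3 rose in the same order over replicates 7, 2, 4 and 6, but replicate 5 held the lowest wild-type Egln3. In the knockout libraries the choroid and ependyma mean rose from replicate 3 (-0.999) through replicates 6, 5 and 8 to replicate 1 (1.518). This was the order of Egln3 except that replicates 1 and 8 changed places. In wild type that mean was highest in replicate 5 (1.963) and lowest in replicates 4 and 6 (1.744 each). Those 2 replicates held the highest Egln3, so in wild type the order was reversed. Pfkfb3 rose from knockout replicate 6 through replicates 3, 5 and 1 to replicate 8. This was the knockout order of the striatal mean except that replicates 3 and 6 changed places. Wild-type replicate 7, with the lowest striatal mean of its genotype, held the second highest wild-type Pfkfb3. With the striatal mean as a covariate, the log2 fold change was -0.07 for Egln3 (SE 0.229, adjusted p = 0.998 in edgeR) and 0.01 for Pfkfb3 (SE 0.147, adjusted p = 0.998). With the choroid and ependyma mean it was -0.25 (SE 0.172) and -0.18 (SE 0.118), both at an adjusted p of 0.998 in edgeR. Neither mean overlapped between the genotypes. The lowest wild-type values were 3.07 (striatal) and 1.744 (choroid and ependyma), and the highest knockout values were 2.96 and 1.518. Both fits therefore have little left to tell the covariate from the genotype, and standard errors rose in both. In bulk tissue, fewer cells of a type and less RNA per cell cannot be told apart.

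**Figure D3:**
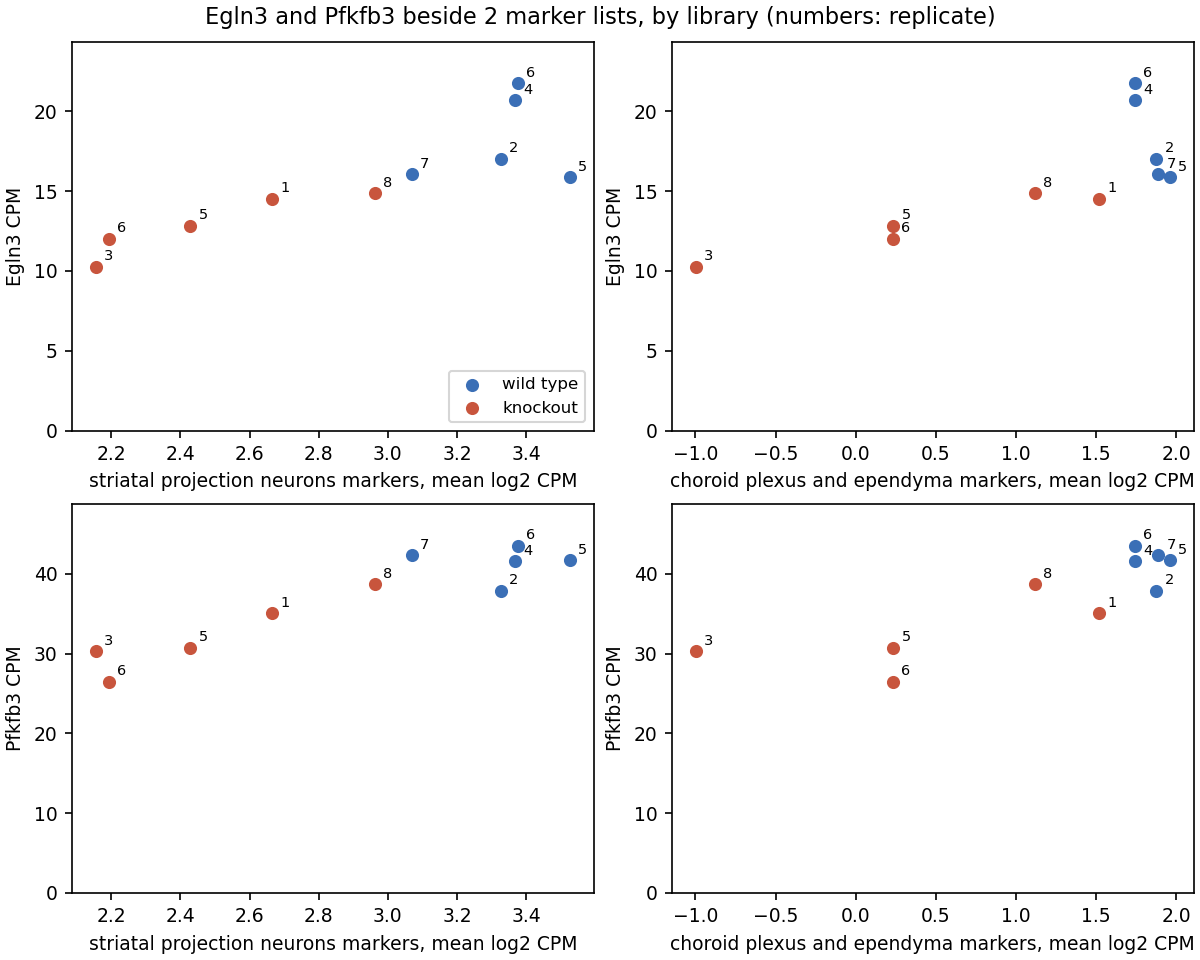
CPM of Egln3 (top) and Pfkfb3 (bottom) in each library against the mean log2 CPM of striatal projection neuron markers (left) and of choroid plexus and ependyma markers (right), with replicate numbers. Knockout libraries (red) lie to the left of wild-type libraries (blue) in all 4 panels, and knockout replicate 3 is the lowest on both marker scales.

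Of the 16 glycolytic enzymes, 0 passed the test over all genes in edgeR. At an unadjusted p under 0.05 there were 3 (18.8%), all 3 higher in the knockout, beside 8.71% of all tested genes. The median log2 fold change of the 16 was 0.04, against 0.00 (-0.0021) over all tested genes, and 10 of the 16 were above 0. Summed, the 16 enzymes made up 4912 ± 61.3 CPM without the deletion and 5051 ± 251.8 CPM with it (SD, n = 5 each). For 15 of the 16 the 95% interval lay within a fold of 1.2 in either direction, the exception being the scarce Hk2.

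Aldoa, the aldolase that splits fructose bisphosphate, held 574, 601, 649, 615 and 616 CPM in wild type and 723, 711, 647, 689 and 579 CPM in knockout. Knockout replicates 1, 3 and 6 lay above the wild-type range and replicates 5 and 8 within it, replicate 8 near its bottom, and the log2 fold change was 0.13 (SE 0.052, adjusted p = 0.408 in edgeR). Without knockout replicate 8 it was 0.18, and Aldoa then passed the test (adjusted p = 0.0290). Ldhb, the lactate dehydrogenase subunit that favours lactate use, held 160, 167, 179, 161 and 165 CPM in wild type and 186, 196, 168, 186 and 175 CPM in knockout. Its log2 fold change was 0.13 (SE 0.050, adjusted p = 0.384 in edgeR). Pfkm, the muscle-type phosphofructokinase subunit, held 187, 195, 201, 201 and 200 CPM in wild type and 214, 231, 198, 215 and 200 CPM in knockout, with 0.10 on the log2 scale (SE 0.048, adjusted p = 0.532 in edgeR). In Ldhb and Pfkm, as in Aldoa, knockout replicates 1, 3 and 6 lay above every wild-type library and replicates 5 and 8 did not.

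The steps of the pathway are given here in order, none past the test. The hexokinase genes, whose enzymes trap glucose in the cell, had log2 fold changes of 0.05 for Hk1 (SE 0.046) and -0.16 for Hk2 (SE 0.180). Gpi1, glucose phosphate isomerase, had -0.01. The other phosphofructokinase subunits, Pfkl and Pfkp, had -0.07 each, opposite in sign to Pfkm. Tpi1, triose phosphate isomerase, had 0.07, and Gapdh, the dehydrogenase of the next step, -0.06. Pgk1, the first enzyme to yield ATP, had 0.06 and the mutase gene Pgam1 0.01. The enolase genes had 0.06 for Eno1 and -0.01 for the neuronal Eno2. Pkm, pyruvate kinase, had 0.04 and Ldha, the lactate dehydrogenase subunit that favours lactate production, 0.05.

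Per kilobase of exon, the most abundant members in wild type were Aldoa (238 CPM per kilobase), Pgam1 (217), Pkm (217) and Ldha (204). Hk1 stood at 78.4 CPM per kilobase against 0.839 for Hk2, the inducible hexokinase. Of the phosphofructokinase subunits, Pfkp stood at 98.9, Pfkm at 65.6 and Pfkl at 23.7 CPM per kilobase. Ldha (204) exceeded Ldhb (128), and Eno1 (147) exceeded Eno2 (113). In knockout these pairs had the same order, with Ldha at 211 and Ldhb at 140, and Eno1 at 153 and Eno2 at 112. Gapdh, at 71.4 CPM per kilobase, and other enzymes of this group have many processed copies in the mouse genome. How multi-mapping reads were counted is not given in the sources used here, so these levels are uncertain.

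**Figure D4:**
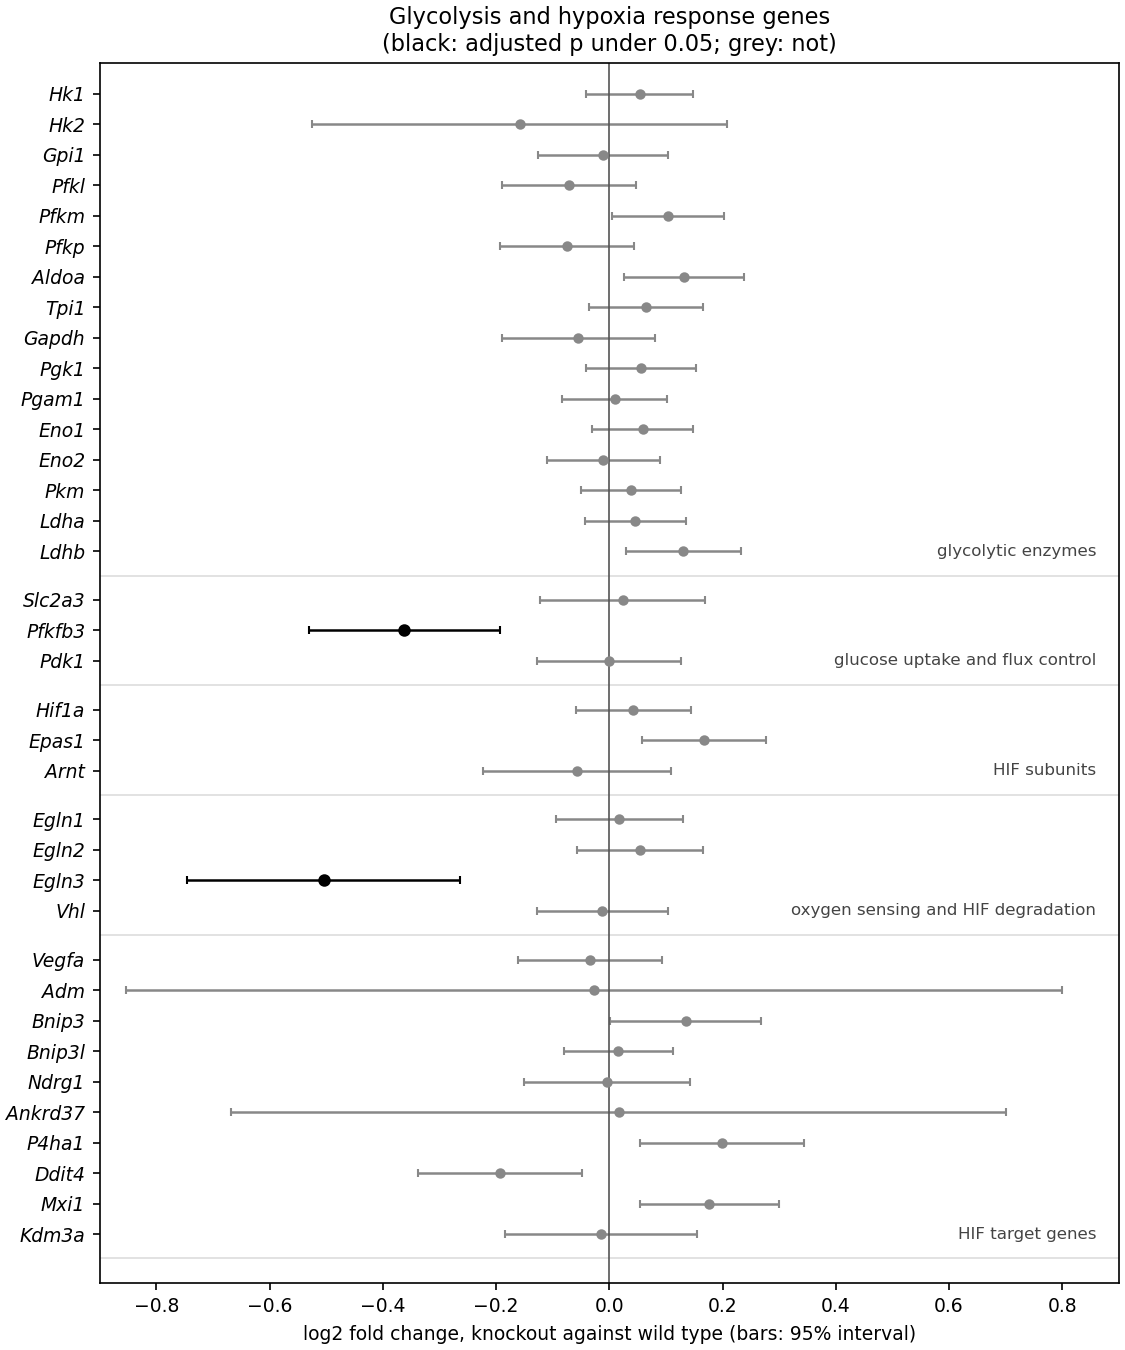
Log2 fold change of knockout against wild type (horizontal axis) with its 95% interval for each of the 36 members (vertical axis), grouped by role, black where the adjusted p was under 0.05. Egln3 and Pfkfb3 stand apart on the left at -0.50 and -0.36, and the widest intervals belong to Adm and Ankrd37.

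Of the 10 HIF target genes, 0 passed the test over all genes in edgeR. At an unadjusted p under 0.05 there were 4 (40%), 3 higher and 1 lower, beside 8.71% of all tested genes. The median log2 fold change of the 10 was 0.01. P4ha1, which encodes a prolyl hydroxylase of collagen, held 33.4, 32.3, 30.4, 29.9 and 32.8 CPM in wild type and 34.5, 37.9, 35.2, 39.3 and 35.3 CPM in knockout. All 5 knockout libraries lay above all wild-type libraries, by 0.20 on the log2 scale (SE 0.071, adjusted p = 0.332 in edgeR). Mxi1, which encodes an antagonist of Myc, held 51.9, 58.5, 55.3, 56.9 and 57.8 CPM in wild type and 59.8, 68.7, 62.3, 66.3 and 59.7 CPM in knockout. Its genotypes did not overlap either, and the log2 fold change was 0.18 (SE 0.060, adjusted p = 0.304 in edgeR). These 2 of the 10 targets (20%) stand beside 1.82% of all tested genes without overlap. With the striatal covariate the values were 0.03 for P4ha1 and -0.01 for Mxi1, and without knockout replicates 3, 5 and 6 the value of Mxi1 was 0.09.

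Ddit4, an inhibitor of mTOR signalling that also responds to glucocorticoids, went the other way. It held 54.3, 49.1, 52.2, 43.0 and 44.1 CPM in wild type and 41.6, 40.3, 42.4, 46.2 and 41.6 CPM in knockout. Knockout replicate 6 lay within the wild-type range and the 4 others just below it, and the log2 fold change was -0.19 (SE 0.071, adjusted p = 0.351 in edgeR). Bnip3, a mitophagy receptor, held 64.9, 77.9, 84.7, 81.4 and 70.8 CPM in wild type and 76.1, 83.5, 90.3, 81.6 and 85.4 CPM in knockout, with overlap and 0.13 (0.135) on the log2 scale (SE 0.065, adjusted p = 0.560 in edgeR). Its relative Bnip3l had 0.02 (SE 0.047).

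The remaining targets had log2 fold changes between -0.03 and 0.02. Vegfa, the growth factor that recruits blood vessels, averaged 56.9 ± 1.67 CPM without the deletion and 55.5 ± 4.43 CPM with it (SD, n = 5 each), with an interval of the fold from 0.894 to 1.07. Ndrg1, a stress-responsive gene of myelinating cells, had -0.0042 (SE 0.071) and the histone demethylase gene Kdm3a -0.01 (SE 0.083). Adm, which encodes the vasodilator adrenomedullin, and Ankrd37, an ankyrin repeat gene, stood near 1.4 CPM. Their intervals of the fold, from 0.553 to 1.74 and from 0.629 to 1.63, are too wide to tell a change of the size of Egln3 from none.

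**Figure D5:**
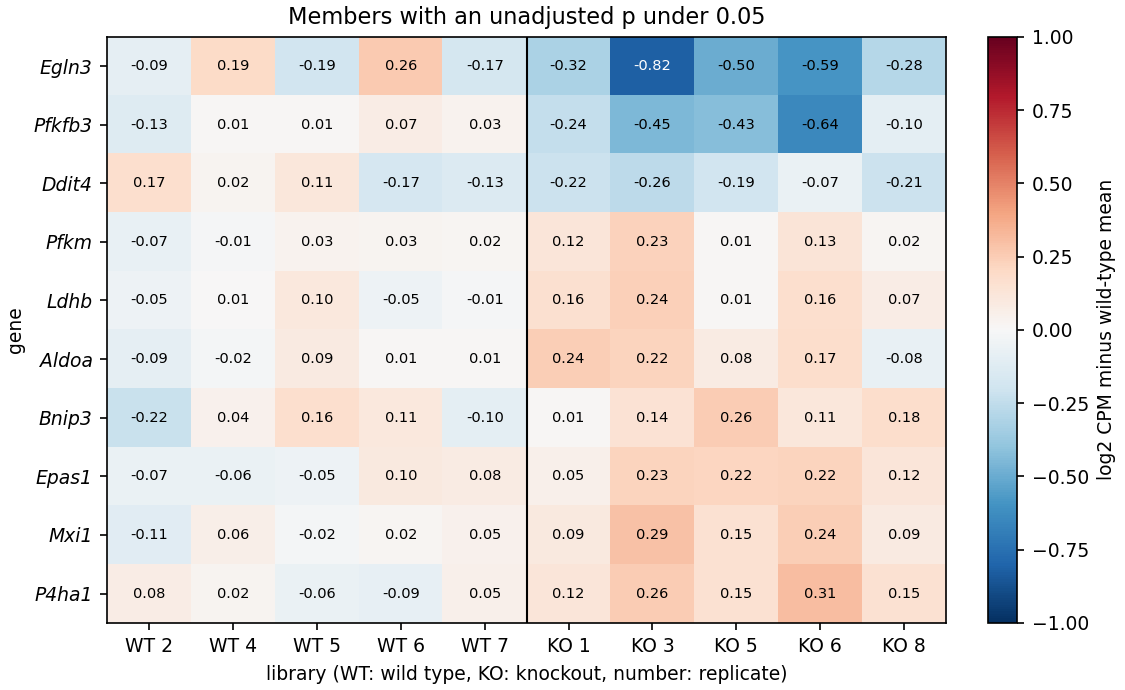
Log2 CPM minus the wild-type mean (colour and printed value) of the 10 members with an unadjusted p under 0.05 (rows) in each library (columns). Egln3, Pfkfb3 and Ddit4 are below 0 in all 5 knockout columns and the other 7 genes above 0, except Aldoa in replicate 8, and the deepest blue is Egln3 in knockout replicate 3.

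Counted over all 36 members, 2 (5.56%) passed the test, both lower, beside the 0.381% of all tested genes, and 10 (27.8%) had an unadjusted p under 0.05 beside 8.71%. The genotypes did not overlap for 3 members (8.33%), Egln3, P4ha1 and Mxi1, beside 1.82% of all genes. The members were proposed with earlier results of these data in view, so these shares are a description. The 10 genes went in both directions, 7 higher and 3 lower, and the median log2 fold change of the 36 was 0.02. For 26 of the 36 the 95% interval lay within a fold of 1.2. Without knockout replicates 3, 5 and 6, 0 members passed the test of edgeR and 3 had an unadjusted p under 0.05. Of 16124 genes tested in that fit, 12 passed the test and 1089 had an unadjusted p under 0.05.

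The other genes of these pathways were 85 genes in 4 lists, of which 81 were tested. In edgeR 0 passed the test in either direction. At an unadjusted p under 0.05 there were 8 (9.88%), near the 8.71% of all tested genes. Of 17 tested further glycolysis genes 3 (17.6%) had such a p, and of 18 genes of lactate and pyruvate handling 4 (22.2%) did. The genotypes did not overlap for 3 of the 81 (3.7%), beside 1.82% of all tested genes. Pfkfb2, a relative of Pfkfb3, averaged 43.5 ± 2.88 CPM without the deletion and 39.2 ± 1.02 CPM with it (SD, n = 5 each). Its genotypes did not overlap, and the log2 fold change was -0.15 (SE 0.066, adjusted p = 0.482 in edgeR). Aldoc, the aldolase of astrocytes, had 0.13 (SE 0.055). Pdha1 and Dld, subunits of the pyruvate dehydrogenase complex that carries pyruvate into the citric acid cycle, had 0.17 (SE 0.049) and 0.18 (SE 0.059).

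Of the 18 genes of lactate and pyruvate handling, 17 had log2 fold changes above 0, with a median of 0.06. Of 18 further regulators of HIF 0 had an unadjusted p under 0.05, and the smallest p belonged to Hif1an, the asparagine hydroxylase of HIF alpha (0.09, SE 0.059), and to the ubiquitin ligase gene Siah2 (-0.14, SE 0.100). Of 30 tested further hypoxia response genes 1 (3.33%) had an unadjusted p under 0.05, beside 8.71% of all tested genes. This was Ccng2, the cyclin G2 gene, at 43.1 ± 3.69 CPM without the deletion and 51.1 ± 1.84 CPM with it (SD, n = 5 each) with no overlap, or 0.24 on the log2 scale (SE 0.066, adjusted p = 0.126 in edgeR). Next came Insig2, a brake on sterol synthesis, at 0.15 (SE 0.078).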

How the data were processed

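Cortical RNA was purified with Qiagen's RNeasy Mini kit, per the labels' protocols. The authors deposited whole-number read counts per gene under Entrez identifiers, and HISAT2, featureCounts and the build mm39 are named in the submitters' processing notes. For versions, annotation, strand setting and multi-mapping reads nothing is given in the sources used here, so overlapping and antisense genes cannot be told apart. Symbols came from a RefSeq table of GRCm38.p6 (30648 identifiers matched). Pairs of libraries of 1 genotype differed by more than sampling noise (chi-square per degree of freedom 4.1 to 13.9), and p-values measure the spread between these samples.

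The tests ran in edgeR 4.0.16 (R 4.3.3) with filterByExpr, TMM, the robust quasi-likelihood test with genotype as sole term over all 10 libraries, and Benjamini-Hochberg adjustment over 15488 genes with a threshold of 0.05. For ratios 0.5 counts were added. CPM used TMM-scaled totals. Alternatives used DESeq2 1.42.0 and limma 3.58.1, among others, and the method was tested on simulated counts. Alternatives for members other than Egln3 were chosen after seeing the data.

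The members and lists were chosen with earlier results of these data known. All 36 members are named, with each library's value for oxygen sensors, HIF subunits and members with an unadjusted p under 0.05 or non-overlapping genotypes. Of each further list any gene past the test is named, otherwise the 2 smallest p. Proteins were not analysed here.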

Additional observations from a re-analysis of the deposited data

Results flagged for a closer look

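Of 76 sets of 5 libraries of 1 genotype, 2 held an extreme library with a wide gap to its neighbour (Dixon's test at 95%), where chance gives about 1 in 20. Wild-type replicate 7 was lowest for Pfkl, the liver-type phosphofructokinase subunit, at 81.4 CPM against 89.6 to 90.7 CPM in the other wild-type libraries. The same library was highest for Ldha, at 403 CPM against 381 to 386 CPM.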

How the results depend on the processing

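The 22 alternatives were other normalizations, filters and tools, 3 covariates, libraries left out and a replicate block. The 59 genes past the test became 171 with no filter, 124 with DESeq2 and 28 with the sex covariate. The number was 0 with the choroid covariate and 2 with the striatal covariate. In these 2 fits 735 and 798 of 15488 tested genes had an unadjusted p under 0.05 in edgeR. The number past the test was 12 without knockout replicates 3, 5 and 6, and 15 to 182 with 1 library left out. Of the members, 2 passed as reported, 1 with RLE factors or at least 50 counts in 5 libraries, and 0 with limma-voom, the non-robust fit, any of the 3 covariates or without knockout replicates 3, 5 and 6, and 0 to 3 with 1 library left out (3 without knockout replicate 8, Aldoa being the added one). At an unadjusted p under 0.05 there were 9 members with limma-voom, the non-robust fit and the sex covariate. All tested genes with such a p were 1417, 1369 and 1211 of 15488 in these fits. There were 0 members with the choroid covariate (735 of 15488 genes) and 2 with the striatal covariate (798 of 15488). Without those knockout libraries there were 3 (1089 of 16124 genes). Of the other pathway genes, 1 passed with no filter (Ccng2) and 0 or 1 with 1 library left out (Pdha1, without knockout replicate 8).

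Egln3 was not called with RLE factors (-0.50, adjusted p = 0.0502 in edgeR), the stricter filter (-0.51, 0.0505), limma-voom (-0.51, 0.0760), the non-robust fit (-0.50), the sex covariate (-0.45), the choroid (-0.25) and striatal (-0.0706) covariates or without knockout replicates 3, 5 and 6 (-0.31). With 1 library left out its value ran from -0.56 to -0.43. Pfkfb3 was not called with limma-voom (-0.37, adjusted p = 0.0580), the non-robust fit (-0.36), the sex covariate (-0.34), the choroid covariate (-0.18) or without knockout replicates 3, 5 and 6 (-0.17), and had the opposite sign with the striatal covariate (0.0095). With 1 library left out it ran from -0.43 to -0.30. Both were called with DESeq2 (adjusted p = 0.0152 and 0.0155), no filter and upper-quartile factors. The log2 ratios of Egln3 to Egln1 and Egln2 without knockout replicates 3, 5 and 6 were -0.31 and -0.35. The median of the glycolytic enzymes was -0.0401 with the striatal covariate. Of the 34 other members 33 were called under no alternative, Aldoa being the exception, and 7 kept the sign of their log2 fold change under every alternative. The cause of these changes was not tested.

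Replicate numbers 5 and 6 occur in both genotypes, with correlations of deviations of -0.0252 and -0.0508, and the labels do not say that a number marks a shared litter. With a replicate block, which rests on those 4 libraries, 27 genes and 0 members passed. The log2 fold changes were -0.59 for Egln3 and -0.58 for Pfkfb3, with adjusted p of 0.641 and 0.0935 in edgeR. For Adm and Ankrd37, at 36 reads or fewer per library, depth limits what can be detected.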
